A study of Mus musculus with 6 samples.

Results

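The expression of 31 genes of the hypoxia response and of glycolysis was compared between samples labelled pancreatic tumor cell from mice of the genotypes wt and Msi1 -/-. Msi1 is the gene for the RNA-binding protein Musashi 1. The genes were taken as a fixed list. A gene was measured where the array platform annotated a probe set to that gene alone, and the probe set with the highest mean over the arrays represented it. By this rule 28 of the 31 genes were measured, out of 18193 genes on the array: 12 of 15 glycolytic enzymes and all 16 other hypoxia genes. Gapdh was represented only by the array maker's control probe sets and is described apart from the tests, and Gpi1 and Eno1 were not analysed here.

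Total RNA came from C57BL/6 mice aged 11 weeks, with 3 samples per genotype and 1 Affymetrix array per sample. Both groups carried engineered tumour alleles, among them p53f/f and ptf1a-Cre, and differed by the genotype given as wt or Msi1 -/- (called wild-type and Msi1-null below). The Cre is driven from ptf1a, a transcription factor gene of the pancreas lineage. The labels do not say in which cells Msi1 was absent, nor whether each of the 3 samples of a genotype was a different animal. The wild-type samples came from at least 2 animals, by the sex-linked genes given below. The p-values measure the spread of these samples, part of which may be technical. Differences are log2(intensity + 1) in Msi1-null minus wild-type arrays, and SE is limma's moderated standard error.

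When oxygen is short, the prolyl hydroxylases that mark HIF alpha subunits for degradation lose activity, and the HIF transcription factors accumulate and bind the core letters ACGTG or GCGTG near their target genes. These targets raise glucose uptake, glycolysis, lactate export and vessel growth, and reduce the entry of pyruvate into mitochondria. Pancreatic ductal tumours are known for poor perfusion and for high glycolytic flux. Glycolytic genes also respond to other inputs, such as MYC and RAS signalling, so they need not move with the other hypoxia targets.

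None of the measured genes passed the test applied, which was made for each probe set and not for the groups of genes. Of 45037 probe sets 0% passed an adjusted p of 0.05 in limma (Benjamini-Hochberg), and 0 of the 28 genes did, each with an adjusted p of 0.9997. In the same fit 1355 of the 45037 probe sets had an unadjusted p under 0.05, a smaller share than the 0.05 expected if no probe set differed. Without that adjustment 2 of the 28 genes, Adm and Bnip3, lay under 0.05, beside 3.46% of all 18193 genes. The largest differences were lower means of 3 hypoxia genes in Msi1-null arrays: Adm, which encodes the vasodilator peptide adrenomedullin, Bnip3, a mitophagy receptor, and Pdk1, the kinase that inhibits pyruvate dehydrogenase. The largest higher means were those of Ldha, lactate dehydrogenase A, P4ha1, a collagen prolyl hydroxylase, and Pgk1, phosphoglycerate kinase.

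The 250 bases before the first RefSeq start site (GRCm38.p6) of these 6 genes are shown. The genes were taken for their differences alone. The letters that HIF factors bind, every ACGTG or GCGTG of either strand, are in capitals. Sequences run 5′ to 3′ along the gene. Where both strands match in CACGTG, the matches overlap and also spell an E-box.

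The 3 genes with the largest negative differences are these.
Adm, chr7:110627407-110627656, plus strand: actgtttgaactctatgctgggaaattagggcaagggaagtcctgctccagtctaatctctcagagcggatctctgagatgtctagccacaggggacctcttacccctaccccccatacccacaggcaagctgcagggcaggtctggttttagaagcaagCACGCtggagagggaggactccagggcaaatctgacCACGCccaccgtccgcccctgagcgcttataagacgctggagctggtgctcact
Bnip3, chr7:138909507-138909756, minus strand: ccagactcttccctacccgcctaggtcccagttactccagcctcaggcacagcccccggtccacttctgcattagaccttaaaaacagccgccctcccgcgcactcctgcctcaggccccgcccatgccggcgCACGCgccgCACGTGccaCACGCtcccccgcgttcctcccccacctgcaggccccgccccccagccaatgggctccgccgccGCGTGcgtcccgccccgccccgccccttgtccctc
Pdk1, chr2:71872974-71873223, plus strand: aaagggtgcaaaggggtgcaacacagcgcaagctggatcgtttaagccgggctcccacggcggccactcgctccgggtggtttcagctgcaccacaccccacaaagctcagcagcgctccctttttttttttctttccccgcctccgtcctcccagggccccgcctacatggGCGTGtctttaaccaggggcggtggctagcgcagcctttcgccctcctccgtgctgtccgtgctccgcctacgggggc

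The 3 genes with the largest positive differences are these.
Ldha, chr7:46845554-46845803, plus strand: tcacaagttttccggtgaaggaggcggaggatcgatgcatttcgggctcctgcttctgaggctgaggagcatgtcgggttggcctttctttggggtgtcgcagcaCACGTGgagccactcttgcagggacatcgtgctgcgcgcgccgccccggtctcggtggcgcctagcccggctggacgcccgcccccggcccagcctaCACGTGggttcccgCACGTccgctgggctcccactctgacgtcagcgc
P4ha1, chr10:59323046-59323295, plus strand: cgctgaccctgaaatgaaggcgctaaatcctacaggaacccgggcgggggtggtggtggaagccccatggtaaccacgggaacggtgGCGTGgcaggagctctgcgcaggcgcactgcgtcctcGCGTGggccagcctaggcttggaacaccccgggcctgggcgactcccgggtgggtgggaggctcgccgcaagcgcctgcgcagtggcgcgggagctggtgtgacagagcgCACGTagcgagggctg
Pgk1, chrX:106186850-106187099, plus strand: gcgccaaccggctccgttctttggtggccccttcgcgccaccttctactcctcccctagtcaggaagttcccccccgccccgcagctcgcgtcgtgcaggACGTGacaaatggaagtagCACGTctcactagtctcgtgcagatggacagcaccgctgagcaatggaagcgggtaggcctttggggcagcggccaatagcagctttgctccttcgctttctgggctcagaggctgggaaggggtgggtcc

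The letters occurred in all 6 windows, whichever way the gene differed: 2 matches before Adm, 5 before Bnip3, 1 before Pdk1, 5 before Ldha, 3 before P4ha1 and 2 before Pgk1. Of the 28 genes, 27 had a promoter in the RefSeq table, and 21 of these windows held a match, 77.8%. By group these were 14 of 15 other hypoxia genes and 7 of 12 glycolytic enzymes. Among all 27025 genes listed there, 38.6% held one, and among 17491 protein-coding genes 43.9%. The letters contain CG, and the windows of the measured genes were richer in G and C, with a median of 64.0% against 55.2% for protein-coding genes. A match is a description of these letters and not a binding site. Windows of Aldoa, Tpi1, Pkm, Hk1, Eno2 and Vegfa held none.

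**Figure D1:**
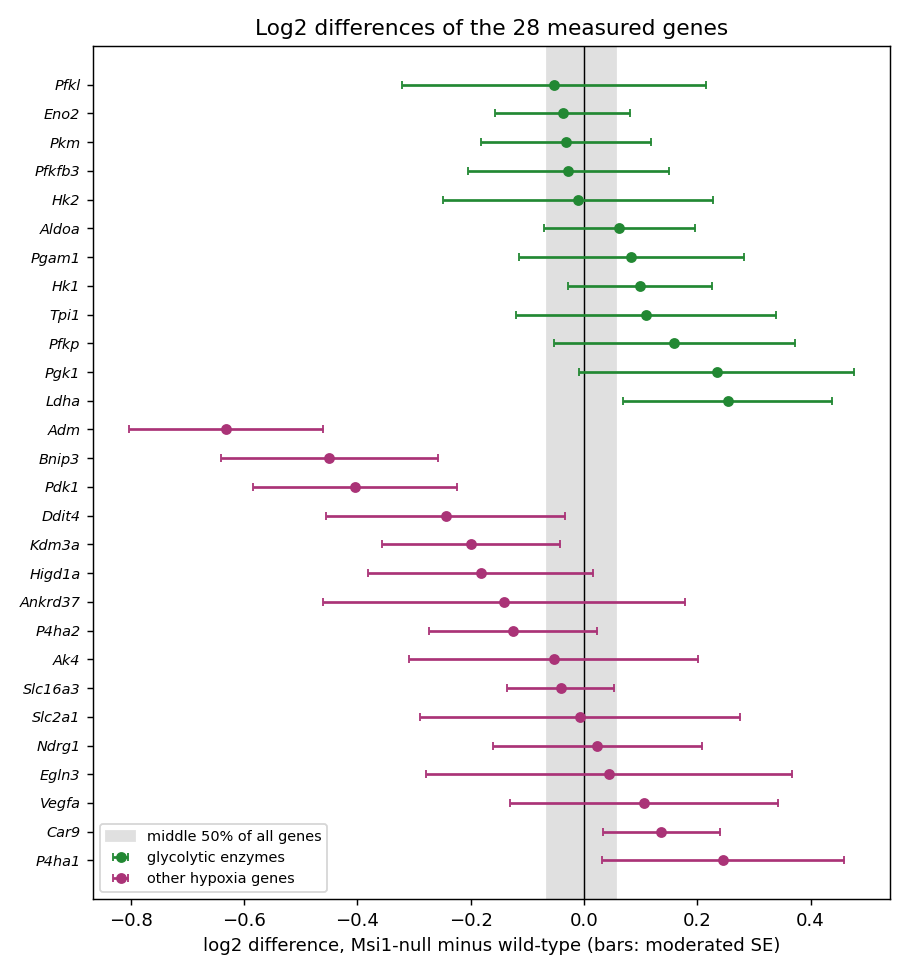
Log2 difference, Msi1-null minus wild-type arrays (3 arrays each), for the 28 measured genes, with bars of 1 moderated SE. Green points are glycolytic enzymes, purple points other hypoxia genes, and the grey band spans the middle 50% of all 18193 genes. For the 12347 genes with a mean above array background, defined below, the middle 50% is wider, from -0.09 to 0.07. Adm, Bnip3 and Pdk1 lie lowest, at -0.63, -0.45 and -0.40, and the 12 glycolytic enzymes lie between -0.05 and 0.25.

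Among the secreted and surface products of the hypoxia response, Adm showed the largest difference of all measured genes. Its intensities were 483, 408 and 344 in wild-type arrays and 281, 213 and 303 in Msi1-null arrays. All Msi1-null values lay under all wild-type values, with means of 412 ± 69.5 and 266 ± 46.9 (SD, n = 3). The log2 difference was -0.63 ± 0.17 (SE; limma unadjusted p = 0.00684, adjusted p = 0.9997). A second probe set of Adm differed by -0.79 ± 0.17 (SE) and did not overlap either.

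Vegfa, the endothelial growth factor, followed another pattern. It read 642, 607 and 997 in wild-type arrays and 714, 663 and 1021 in Msi1-null arrays, with a log2 difference of 0.11 ± 0.24 (SE). The groups overlapped, and in both genotypes replicate 3 was the highest array. Car9, a carbonic anhydrase, read 694, 773 and 802 in wild-type arrays and 832, 843 and 814 in Msi1-null arrays. These groups did not overlap, but the log2 difference was only 0.14 ± 0.10 (SE; limma unadjusted p = 0.225). In all, the groups did not overlap for 3 of the 28 genes, Adm and Pdk1 with lower and Car9 with higher Msi1-null values, beside 8.28% of all genes in either direction.

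Bnip3, Pdk1, Higd1a and Ak4 act in mitochondria. Bnip3 read 1451, 968 and 1492 in wild-type arrays and 905, 839 and 1083 in Msi1-null arrays. Wild-type replicate 2 fell within the Msi1-null range, and the log2 difference was -0.45 ± 0.19 (SE; limma unadjusted p = 0.0499). Pdk1 read 628, 606 and 838 in wild-type arrays and 417, 569 and 580 in Msi1-null arrays, with no overlap. Its log2 difference was -0.40 ± 0.18 (SE; limma unadjusted p = 0.0581). Of its 4 probe sets, another also separated the groups (-0.30 ± 0.12, SE). The remaining pair overlapped, with differences of 0.05 and, in a probe set below background in all arrays, -0.08. Averaged over its probe sets, Pdk1 differed by -0.18. Without wild-type replicate 3 it differed by -0.26, and without Msi1-null replicate 1 by -0.25. Higd1a, a protein of the respiratory chain, differed by -0.18 ± 0.20 (SE). Its other probe sets differed by -0.02 and 0.05, and the difference was -0.05 with probe sets averaged and -0.02 without wild-type replicate 3. Ak4, a mitochondrial adenylate kinase, differed by -0.05 ± 0.26 (SE). Ak4 was above array background, the 95th percentile of 44 olfactory receptor probe sets, in 3 of 6 arrays.

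**Figure D2:**
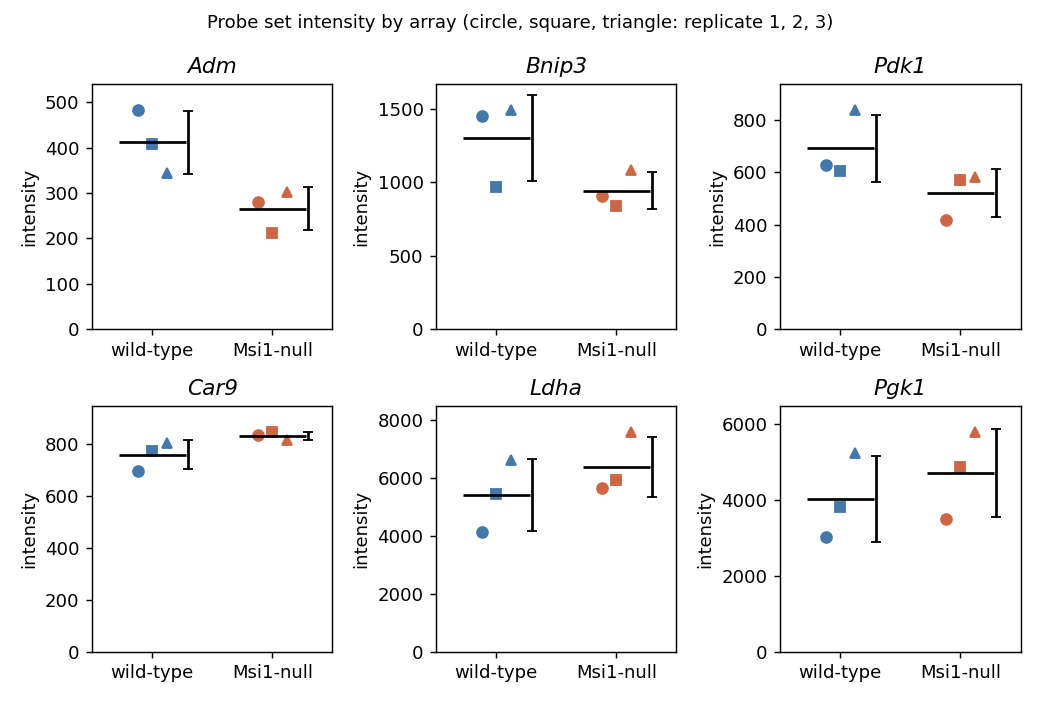
Probe set intensity (linear, from 0) of Adm, Bnip3, Pdk1, Car9, Ldha and Pgk1 in each array, blue for wild-type and orange for Msi1-null, with the mean as a line and the SD as a bar (n = 3). Adm and Pdk1 are lower and Car9 is higher in all Msi1-null arrays, while Bnip3, Ldha and Pgk1 overlap.

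Oxygen-sensing and chromatin genes showed small differences. Egln3, a prolyl hydroxylase that is itself induced by hypoxia, read 280, 321 and 542 in wild-type arrays and 244, 486 and 451 in Msi1-null arrays. These values spread over the same range in both genotypes, and the log2 difference was 0.04 ± 0.32 (SE). Kdm3a, a histone demethylase, differed by -0.20 ± 0.16 and Ankrd37, an ankyrin repeat protein, by -0.14 ± 0.32 (SE). Ankrd37 was above background in 4 of 6 arrays. Ddit4, an inhibitor of mTOR signalling that stress induces, read 5064, 3909 and 3527 in wild-type arrays and 4532, 2673 and 3470 in Msi1-null arrays. Its groups overlapped, with a log2 difference of -0.24 ± 0.21 (SE), and leaving out Msi1-null replicate 2 gave -0.05, leaving out wild-type replicate 1 gave -0.09. Ndrg1, a stress-induced growth regulator, differed by 0.02 ± 0.18 (SE), with 4 of its 5 probe sets on the same side of 0.

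The pair of collagen prolyl hydroxylase subunits differed in opposite directions, each by about its error. P4ha1 read 589, 919 and 1069 in wild-type arrays and 929, 998 and 1040 in Msi1-null arrays, with a log2 difference of 0.25 ± 0.21 (SE). The difference rested on wild-type replicate 1, the lowest array, and was -0.0044 without it. P4ha2 read 682, 653 and 755 in wild-type arrays and 635, 535 and 762 in Msi1-null arrays, with a log2 difference of -0.13 ± 0.15 (SE).

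The transporters at the ends of the pathway did not separate the genotypes. Slc2a1, the glucose transporter GLUT1, differed by -0.01 ± 0.28 (SE), with its 3 probe sets between -0.06 and -0.01. Slc16a3, the lactate exporter MCT4, differed by -0.04 ± 0.09 (SE). With both counted among the glycolytic genes, the median of that group was 0.03.

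Within glycolysis, the early steps were mixed. Hk1, the constitutive hexokinase, read 1163, 1225 and 1235 in wild-type arrays and 1115, 1470 and 1318 in Msi1-null arrays, with a log2 difference of 0.10 ± 0.13 (SE). Hk2, the inducible hexokinase of tumours, read 830, 1182 and 1649 in wild-type arrays and 1043, 1285 and 1182 in Msi1-null arrays. Its wild-type arrays spanned all Msi1-null values, and the log2 difference was -0.01 ± 0.24 (SE).

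The phosphofructokinase genes, which encode the committed step, had no common direction. Pfkl, the liver-type subunit, read 268, 461 and 408 in wild-type arrays and 256, 473 and 372 in Msi1-null arrays, with a log2 difference of -0.05 ± 0.27 (SE). Replicate 1 was the lowest array for Pfkl in both genotypes. Pfkp, the platelet-type subunit, read 612, 812 and 799 in wild-type arrays and 1073, 624 and 827 in Msi1-null arrays, with a log2 difference of 0.16 ± 0.21 (SE). Its highest value was Msi1-null replicate 1, and without that array the difference was -0.03. Pfkfb3, which makes an activator of this step, read 310, 340 and 489 in wild-type arrays and 407, 339 and 353 in Msi1-null arrays. The groups overlapped, with a log2 difference of -0.03 ± 0.18 (SE).

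The next steps split the sugar and carry it to lactate. Aldoa, the aldolase, differed by 0.06 ± 0.13 and Pgam1, phosphoglycerate mutase, by 0.08 ± 0.20 (SE). Tpi1, triosephosphate isomerase, read 2958, 3668 and 4869 in wild-type arrays and 3023, 4618 and 4748 in Msi1-null arrays, with a log2 difference of 0.11 ± 0.23 (SE). Its values overlapped almost fully, and replicate 1 was low in both genotypes. Pgk1, which regains ATP, read 3008, 3821 and 5238 in wild-type arrays and 3485, 4872 and 5776 in Msi1-null arrays, with a log2 difference of 0.23 ± 0.24 (SE). Without wild-type replicate 1 it was 0.04, and without Msi1-null replicate 3 it was 0.07. Ldha, which turns pyruvate into lactate, read 4146, 5432 and 6624 in wild-type arrays and 5634, 5923 and 7572 in Msi1-null arrays. The groups overlapped, and the log2 difference was 0.25 ± 0.19 (SE; limma unadjusted p = 0.211). Without wild-type replicate 1 it was 0.08, and without Msi1-null replicate 3 it was 0.12.

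Enolase and pyruvate kinase make the pyruvate that Ldha uses. Eno2, the neuronal enolase, read 198, 159 and 145 in wild-type arrays and 176, 159 and 150 in Msi1-null arrays, with a log2 difference of -0.04 ± 0.12 (SE), and was above background in 2 of 6 arrays. Pkm, pyruvate kinase, read 2615, 3297 and 3592 in wild-type arrays and 2791, 2923 and 3551 in Msi1-null arrays, with a log2 difference of -0.03 ± 0.15 (SE). Both groups covered the same range. The 3′ control probe set of Gapdh, the glycolytic dehydrogenase, read 7234, 8134 and 9082 in wild-type arrays and 7579, 8227 and 9044 in Msi1-null arrays, with a log2 difference of 0.03. The middle and 5′ control probe sets differed by 0.10 and 0.17.

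Set against each other, the 12 glycolytic enzymes had a median log2 difference of 0.07, with 7 higher and 5 lower means and a range from -0.05 to 0.25. The 16 other hypoxia genes had a median of -0.09, with 5 higher and 11 lower means and a range from -0.63 to 0.25. Over all 18193 genes the median was 0.0006, the middle 50% lay between -0.06 and 0.06, and 9143 means were higher. The medians thus differed by 0.16, and by 0.11 when Adm, Bnip3 and Pdk1 were left out. No p is given, since the genes were listed with results of these data known. The glycolytic median was -0.06 without wild-type replicate 1 and -0.0044 without Msi1-null replicate 3. The median of the other hypoxia genes was 0.08 without wild-type replicate 3 and -0.0045 without Msi1-null replicate 1. The difference between them stayed between 0.08 and 0.24 in the 6 fits that left out 1 array.

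**Figure D3:**
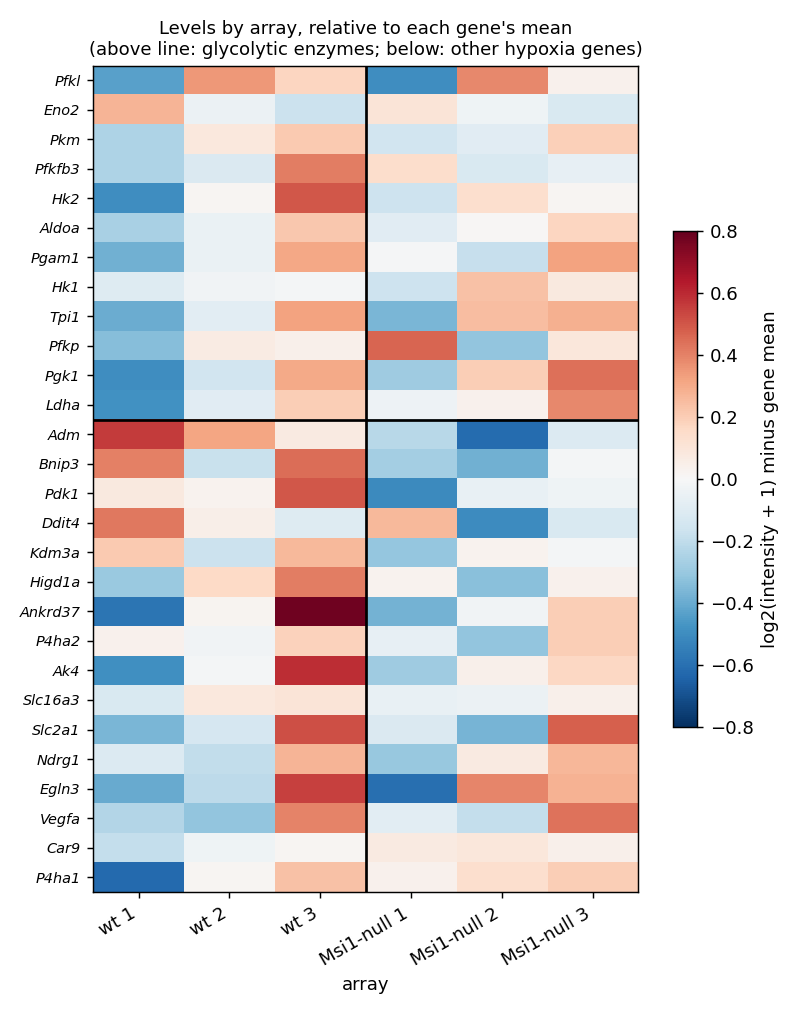
Level of each measured gene (rows) in each array (columns) as log2(intensity + 1) minus the gene's mean over the 6 arrays, red for higher and blue for lower. Glycolytic enzymes are above the black line and other hypoxia genes below it. Wild-type replicate 1 was the lowest wild-type array for 11 of 12 glycolytic enzymes, and wild-type replicate 3 the highest for 14 of 16 other hypoxia genes.

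Arrays of 1 genotype also differed among themselves. Across wild-type arrays the log2 range had a median of 0.67 over the glycolytic enzymes and 0.57 over the other hypoxia genes, and across Msi1-null arrays 0.41 and 0.49. An array score, the mean over the genes of the log2 value minus each gene's mean, showed which arrays were involved. For glycolytic enzymes it was -0.30, -0.01 and 0.21 in wild-type arrays and -0.09, 0.04 and 0.15 in Msi1-null arrays. For the other hypoxia genes it was -0.11, -0.04 and 0.33 in wild-type arrays and -0.18, -0.13 and 0.13 in Msi1-null arrays. Replicate 3 was the highest array of either genotype in both scores, and replicate 1 the lowest. Among Msi1-null arrays replicate 3 was highest for 12 of 16 other hypoxia genes and 6 of 12 glycolytic enzymes. The glycolytic score minus the hypoxia score was -0.19, 0.028 and -0.12 in wild-type arrays and 0.09, 0.17 and 0.026 in Msi1-null arrays. The mean values were -0.10 ± 0.11 and 0.10 ± 0.07 (SD, n = 3), and the groups overlapped only between wild-type replicate 2 and Msi1-null replicate 3.

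**Figure D4:**
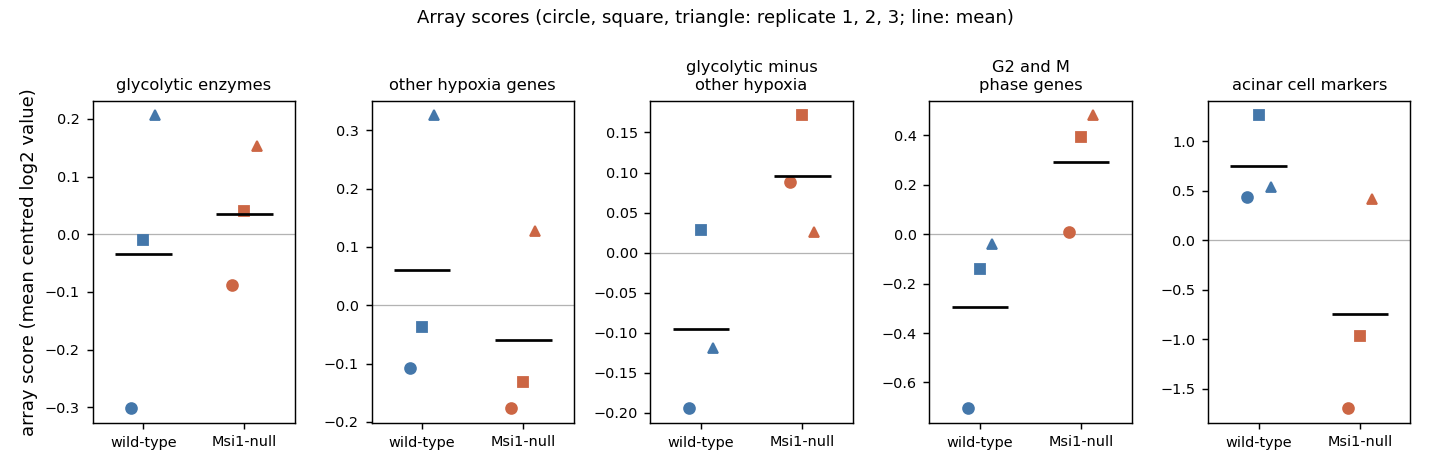
Array scores (mean centred log2 value, 1 point per array, line at the mean, each panel with its own scale) of the glycolytic enzymes, the other hypoxia genes, their difference, G2 and M phase genes and acinar cell markers. Replicate 3 is the highest array of each genotype for both groups of measured genes. Acinar scores are lower and G2 and M phase scores higher in all Msi1-null arrays. The lowest wild-type and highest Msi1-null acinar scores are nearly equal, at 0.44 and 0.42.

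Upstream of these targets lie the HIF factors and their sensors. Of 9 genes for HIF factors, their partners and oxygen sensors, 2 had higher and 7 lower means, with a median log2 difference of -0.06, and 0 passed an adjusted p of 0.05 in limma (1 had an unadjusted p under 0.05). Hif1a differed by 0.05 and Epas1, which encodes HIF-2 alpha, by -0.15. Hif3a, the gene of another alpha subunit, differed by -0.25 ± 0.15 (SE). The prolyl hydroxylase genes Egln1 and Egln2 differed by -0.04 and -0.06 and Vhl, the ubiquitin ligase subunit that captures hydroxylated HIF, by 0.03. Arnt2, a neural HIF partner, read 232, 151 and 161 in wild-type arrays and 143, 136 and 133 in Msi1-null arrays, with a log2 difference of -0.37 ± 0.15 (SE; limma unadjusted p = 0.0423). Only wild-type replicate 1 of Arnt2 stood well above the array background of 154 to 168. Wild-type replicate 2 and all Msi1-null values of Arnt2 lay below background.

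Further hypoxia targets were likewise mixed: 8 of 19 measured had higher and 11 lower means, with a median of -0.03. Sdc4, a heparan sulfate proteoglycan, read 3669, 3612 and 3709 in wild-type arrays and 2145, 3591 and 3129 in Msi1-null arrays, with a log2 difference of -0.34 ± 0.18 (SE). Its groups did not overlap, but 1 Msi1-null array lay close to the wild-type values. Mxi1, an antagonist of MYC, differed by -0.29 ± 0.19 and Gbe1, the glycogen branching enzyme, by -0.14 ± 0.12 (SE). None of the 19 had an adjusted or an unadjusted p under 0.05 in limma.

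Of 18 other enzymes and regulators of glucose use 7 had higher and 11 lower means, with a median of -0.04. Pfkfb4, a relative of Pfkfb3 that hypoxia also induces, read 487.2, 548 and 526 in wild-type arrays and 486.6, 446 and 387 in Msi1-null arrays, with a log2 difference of -0.25 ± 0.12 (SE). Its lowest wild-type and highest Msi1-null values were nearly equal. The gluconeogenic genes Pck1 and Fbp1 differed by -0.27 ± 0.12 and -0.22 ± 0.10 (SE), and the means of both lay under the array background in both genotypes.

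For pyruvate entry and for the carriers, 6 of 11 genes had higher and 5 lower means, with a median of 0.05. Slc16a1, the lactate and pyruvate carrier MCT1, had the largest difference among them. It read 851, 979 and 1256 in wild-type arrays and 1237, 1414 and 1721 in Msi1-null arrays, with a log2 difference of 0.51 ± 0.18 (SE; limma unadjusted p = 0.0256). Wild-type replicate 3 lay above Msi1-null replicate 1, so the groups overlapped. Pdk2 and Pdk4, relatives of Pdk1, differed by -0.07 ± 0.07 and -0.42 ± 0.45 (SE). None of these 11 passed an adjusted p of 0.05 in limma, and Slc16a1 alone had an unadjusted p under 0.05.

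The arrays were bulk samples, in which fewer cells of a type and less RNA per cell cannot be told apart. Median intensity lay between 159.2 and 164.3. The brightest Msi1 probe set read 143.6, 150 and 257 in wild-type arrays and 141, 168 and 127 in Msi1-null arrays. Only wild-type replicate 3 stood well above the array background, and the other wild-type values lay below it and below Msi1-null replicate 2, so this probe set does not check the genotype labels. Xist was 6226 in wild-type replicate 3 and at most 387 elsewhere, with Eif2s3y at 88.2 there and at least 716 elsewhere, so 1 array had a female pattern. It was also the array with the highest Msi1 value and the highest hypoxia score, and a link between these values was not tested. Epithelial, fibroblast and macrophage markers had means above background for 11 of 11, 12 of 12 and 12 of 12 measured genes. The same held for 12347 of all 18193 genes, so these counts alone do not show how much of each cell type the samples held.

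Means of some markers of other cells and of division also differed between the genotypes, though 0 passed an adjusted p of 0.05 in limma. In the same fit 19 of the 21 division genes and 12 of the 14 acinar markers had an unadjusted p under 0.05, beside 3.46% of all 18193 genes. The lists were chosen with earlier results of these data known, so these counts are a description and not a test. The part of these markers in the differences above was not tested. All 14 acinar markers had lower means in Msi1-null arrays (median -1.51), with array scores from 0.44 to 1.27 in wild-type and from -1.70 to 0.42 in Msi1-null arrays. All 21 G2 and M phase genes had higher means (median 0.57), with scores from -0.70 to -0.04 and from 0.0084 to 0.48. Wild-type replicate 1, the lowest array for glycolytic enzymes, was also the lowest for these division genes. Of the T and NK cell markers 11 of 11 had higher means (median 0.29), and 6 of them were above background on average. B cell, endothelial, neutrophil, macrophage, erythroid, muscle and adipocyte lists had medians of 0.29, 0.24, 0.10, 0.05, -0.15, 0.04 and -0.17. Duct epithelium and fibroblast lists had medians of -0.0013 and -0.01. The 3′ to 5′ ratio of the Gapdh controls, a sign of RNA quality, had a mean of 1.69 ± 0.156 (SD, n = 3) over wild-type arrays and 1.53 ± 0.128 (SD, n = 3) over Msi1-null arrays.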

How the data were processed

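The 6 arrays were described by 1 table of linear probe set intensity values, deposited by the authors and made with GCRMA per the submitters' processing notes. GCRMA corrects background by probe sequence, normalizes quantiles and summarises probes. Its version and settings are not given in the sources used here, nor whether values were rescaled, and a compressed low end would shrink differences of dim genes. Of 45101 probe sets 64 controls were left out. A platform annotation named 34945 of the 45037 tested with 1 symbol, 932 with several and 9160 with none, and symbols were updated through Entrez identifiers with RefSeq for GRCm38.p6 (34741 matched). Values were analysed as log2(intensity + 1). One linear model per probe set, holding genotype and no covariate, was run in R 4.3.3 with the package limma 3.58.1, using lmFit and then eBayes with an intensity trend. P-values were adjusted over all probe sets by the Benjamini-Hochberg method. The fit was tested on simulated data with independent noise and with differences larger than those of the measured genes. That test does not show whether differences of the size seen here would be found. The genes and the lists set beside them were chosen with earlier results of these data known. Every measured gene is named with its difference, Gapdh by its controls, and array values are given for the 4 highest and 4 lowest differences of each group, for genes without overlap and for paralog pairs. From the other lists up to 3 genes with the smallest unadjusted p were taken, and Hif1a, Epas1, Egln1, Egln2 and Vhl for their role. Alternatives changed the pseudocount, filter, prior, normalization, array weights, replicate block, arrays, probe sets and grouping. The number of arrays limits the precision.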

Additional observations from a re-analysis of the deposited data

How the results depend on the processing

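With 3 arrays per genotype, 0 of 45037 probe sets passed the adjusted threshold, and 1355 had an unadjusted p under 0.05. Leaving out 1 array gave 0 to 1 (1 without Msi1-null replicate 1). The count at an unadjusted p under 0.05 was 546 of 15775 probe sets after the filter on low values, 605 of 18193 with probe sets averaged per gene, 2153 with array weights and 2120 with the replicate block, and lay between 886 (without wild-type replicate 1) and 2723 (without Msi1-null replicate 1) when 1 array was left out. Correlations of deviations between same-numbered samples were 0.17, -0.09 and 0.28, against -0.26 to 0.06 between differently numbered samples. The labels name no pairing, and whether same-numbered samples were paired is not known. With the replicate block 0 probe sets passed. The medians, 0.07 for glycolytic enzymes and -0.09 for other hypoxia genes, cannot change under the block in this balanced design. Signs turned for Pfkp with array weights (-0.016), and for Pfkfb3 (0.0024) and Ak4 (0.010) with probe sets averaged per gene. The array weights were lowest for Msi1-null replicate 1 (0.34), the highest array for Pfkp, and the reason for that turn was not tested. The averages took in probe sets on both sides of 0, from -0.03 to 0.03 for Pfkfb3 and from -0.07 to 0.10 for Ak4. Leaving out 1 array turned the sign of 17 of the 28 genes, with these lowest and highest log2 differences: Hk2 -0.26 to 0.23, Pfkl -0.28 to 0.18, Pfkp -0.033 to 0.36, Pfkfb3 -0.16 to 0.17, Aldoa -0.051 to 0.18, Tpi1 -0.062 to 0.32, Pgam1 -0.087 to 0.26, Eno2 -0.13 to 0.088, Pkm -0.16 to 0.065, Vegfa -0.084 to 0.33, Ndrg1 -0.10 to 0.18, Egln3 -0.15 to 0.36, Ankrd37 -0.47 to 0.21, P4ha1 -0.0044 to 0.42, P4ha2 -0.25 to 0.0010, Ak4 -0.31 to 0.23 and Slc2a1 -0.25 to 0.25. The other 11 kept their sign in every alternative run, with these ranges without 1 array: Adm -0.75 to -0.48, Bnip3 -0.65 to -0.34, Pdk1 -0.49 to -0.25, Ddit4 -0.43 to -0.05, Higd1a -0.38 to -0.02, Kdm3a -0.33 to -0.09, Slc16a3 -0.11 to -0.0005, Car9 0.08 to 0.18, Hk1 0.0062 to 0.21, Ldha 0.08 to 0.41 and Pgk1 0.04 to 0.44. Of these, Hk1, Slc16a3 and Higd1a came close to 0. The glycolytic median was 0.01 with array weights. The alternatives without Adm, Bnip3 and Pdk1 and with Gapdh by its 3′ control were chosen after seeing the data.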
